A study of Mus musculus with 4 samples.

Results

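Immediate early genes are the first genes a cell switches on after a stimulus, and in cells released from solid tissue they are widely read as a record of the isolation itself. The genes followed here are 10 of them, Fos, Fosb, Jun, Junb, Jund, Egr1, Atf3, Ier2, Ier3 and Nr4a1, of 18353 genes that the array names through RefSeq. Every non-control probe whose accession RefSeq assigns to a member was taken. This gave 11 probes of 41174, 2 for Junb and 1 for each of the other genes. Taking these probes used no measured value, but the genes themselves were chosen with earlier results of these data known. Their RNA was measured in cardiac endothelial cells of adult mice, in 2 control samples labelled wild type and 2 samples labelled G2-EC-KO, also called Gata2 knock out. Agilent 1-colour arrays served for this, 1 for each sample. The labels give neither the driver of the deletion nor the way the cells were isolated, and they do not say whether replicates came from separate animals. The p-values below therefore rest on the spread among these 4 samples, part of which may be technical. No sample of intact heart tissue was analysed here, so RNA present in the living vessel and RNA made during isolation cannot be told apart. In bulk RNA of this kind, fewer cells of a type and less RNA per cell also cannot be told apart.

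The proteins of these genes act mainly on transcription. Fos and Jun proteins join as pairs into AP-1, a leucine zipper factor that binds DNA, while Egr1 is a zinc finger factor, Atf3 a stress-induced factor of the CREB and ATF family and Nr4a1 an orphan nuclear receptor. Growth factor, calcium and stress kinases switch the genes on through factors already in the cell, such as SRF with its ternary complex partners and CREB, and no protein has to be made first. The transcripts are short-lived, so that their level follows recent signalling.

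The start sites of several of these genes carry the core of the cAMP response element, the DNA site of the CREB and ATF family. RefSeq windows of 300 bases, from 250 bases before the annotated start to 50 after it in build GRCm38.p6, were found for 8 of the 10 genes, all but Egr1 and Ier2, and the letters TGACG were searched on both strands. They occur in 5 of the 8 windows, against 20.8% of 32851 windows of the same length over all genes. Those 5 are shown because they include both genes that read highest on G2-EC-KO replicate 2 and genes that read highest on control replicate 2. Capitals mark TGACG, or CGTCA where it lies on the opposite strand, and each sequence reads 5′ to 3′ in the direction of its gene.
Fos, chr12:85473640-85473939, plus strand: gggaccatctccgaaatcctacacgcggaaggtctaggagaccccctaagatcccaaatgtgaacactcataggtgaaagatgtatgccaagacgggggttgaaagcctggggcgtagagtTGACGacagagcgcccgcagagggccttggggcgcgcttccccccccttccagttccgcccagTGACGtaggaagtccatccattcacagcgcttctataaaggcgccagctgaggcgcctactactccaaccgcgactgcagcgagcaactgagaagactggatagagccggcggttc
Nr4a1, chr15:101266596-101266895, plus strand: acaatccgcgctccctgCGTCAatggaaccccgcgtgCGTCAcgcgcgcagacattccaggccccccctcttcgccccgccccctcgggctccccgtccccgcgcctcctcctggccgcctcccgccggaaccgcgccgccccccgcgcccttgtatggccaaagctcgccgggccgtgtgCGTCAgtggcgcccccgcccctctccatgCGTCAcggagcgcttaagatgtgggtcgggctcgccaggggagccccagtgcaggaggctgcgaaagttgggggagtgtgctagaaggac
Junb, chr8:84978699-84978998, minus strand: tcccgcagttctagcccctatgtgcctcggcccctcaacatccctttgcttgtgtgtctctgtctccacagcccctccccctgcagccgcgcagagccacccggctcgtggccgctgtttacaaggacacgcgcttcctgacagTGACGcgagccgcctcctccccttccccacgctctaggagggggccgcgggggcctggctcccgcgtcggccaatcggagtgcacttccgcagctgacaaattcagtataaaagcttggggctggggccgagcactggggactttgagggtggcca
Fosb, chr7:19309996-19310295, minus strand: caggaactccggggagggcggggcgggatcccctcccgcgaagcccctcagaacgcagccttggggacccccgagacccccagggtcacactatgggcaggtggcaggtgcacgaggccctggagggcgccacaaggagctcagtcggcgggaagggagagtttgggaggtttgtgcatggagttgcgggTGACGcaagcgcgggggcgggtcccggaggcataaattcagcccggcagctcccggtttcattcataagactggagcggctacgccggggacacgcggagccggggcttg
Atf3, chr1:191183284-191183583, minus strand: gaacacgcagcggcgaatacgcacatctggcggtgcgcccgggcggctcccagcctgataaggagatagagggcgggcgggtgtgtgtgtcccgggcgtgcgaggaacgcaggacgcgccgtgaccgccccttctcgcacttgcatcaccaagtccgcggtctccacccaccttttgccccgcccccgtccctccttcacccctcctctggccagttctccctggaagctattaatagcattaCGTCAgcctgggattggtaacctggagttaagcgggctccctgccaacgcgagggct
The Nr4a1 window holds 4 copies, the Fos window 2 and the windows of Junb, Fosb and Atf3 hold 1 each. In Fos the copies begin 129 and 66 bases before the start site, and in Atf3 the copy begins 7 bases before it. The windows of Jun, Jund and Ier3 hold none. The full palindrome TGACGTCA, which contains TGACG, is in 0 of the 8 windows and in 1.79% of all windows. The AP-1 letters TGACTCA are in 0 of the 8 and in 5.20% of all. The SRF CArG box, searched by its consensus on both strands, is also in 0 of the 8, against 1.63% of all. TATAAA on the sense strand is in the windows of Fos and Junb and in 8.32% of all. A match describes these letters in these windows only.

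Before the members, the arrays themselves were compared. The 75th percentile of the processed signal, used to scale each array, was 1411 and 1438 in control and 1288 and 1181 in G2-EC-KO. No array had a saturated spot. Gata2, the labelled target, read 1.86 and 2.17 in control and 2.17 and 2.46 in G2-EC-KO at its probe A_51_P516625. The deleted part of the gene is not given in the sources used here. Control replicate 2 stood apart in sex-linked RNA: 4 of 4 Xist probes were not well above background there and well above it on the other 3 arrays, while 6 of 6 probes of Ddx3y, Eif2s3y, Uty and Kdm5d were well above background on that array alone. Endothelial markers were well above background on all arrays for 13 of 13 genes, with a median log2 change of 0.0066 between the groups. Cardiomyocyte markers gave 15 of 15 higher values in G2-EC-KO and 14 of 15 genes were highest on replicate 2. Their summed level, in units of the 75th percentile, was 121 and 120 in control and 125 and 180 in G2-EC-KO. Macrophage markers summed to 14.4 and 20.1 in control and 21.9 and 19.3 in G2-EC-KO. The change was positive for 13 of 13 of them, and 12 were lowest on control replicate 1. Among the 13, Ccr2 was well above background on only 2 arrays. It read -7.36 and -5.97 in control and -4.76 and -5.28 in G2-EC-KO. A probe that passes the filter on 2 arrays can owe its place to the group where it is higher, so its direction adds nothing. Lymphocyte markers summed to at most 1.48 on any array, with Cd8a and Cd3g not well above background anywhere. Granulocyte markers summed to 12.8 and 6.61 in control and 14.0 and 9.39 in G2-EC-KO, and fibroblast markers to 164 and 195 in control and 192 and 208 in G2-EC-KO. Mural markers of pericytes and smooth muscle summed to 330 and 297 in control and 342 and 245 in G2-EC-KO, with 9 of 10 lowest on G2-EC-KO replicate 2. Red cell and platelet markers summed to 86.5 and 75.4 in control and 149 and 78.8 in G2-EC-KO. Changes between the groups were positive for 10 of 11 fibroblast markers and negative for 8 of 10 mural markers. The part of all these cell types in the values below was not tested.

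All 11 immediate early probes were bright on all 4 arrays. Levels are given in log2 relative to each array's 75th percentile, and they ran from 4.42 to 8.18, or 21.4 to 290-fold above that percentile. Every one of the 11 was well above background on 4 of 4 arrays. Signals of different probes are not ranked against each other, because probe sequence also sets brightness. The brightest member spots reached 52.1% of the scanner's saturation value, and Feature Extraction gave each member spot an error of 10%. No member passed the test between the groups (limma, 0 of 11 at an adjusted p under 0.05), against 0.00372% of all 26894 probes tested, which is 1 probe. None had an unadjusted p under 0.05 either, against 9.63% of all probes. The absence of a call does not show that the groups are alike, and the 95% intervals of the 11 changes reach from 0.652-fold to 1.53-fold.

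**Figure D1:**
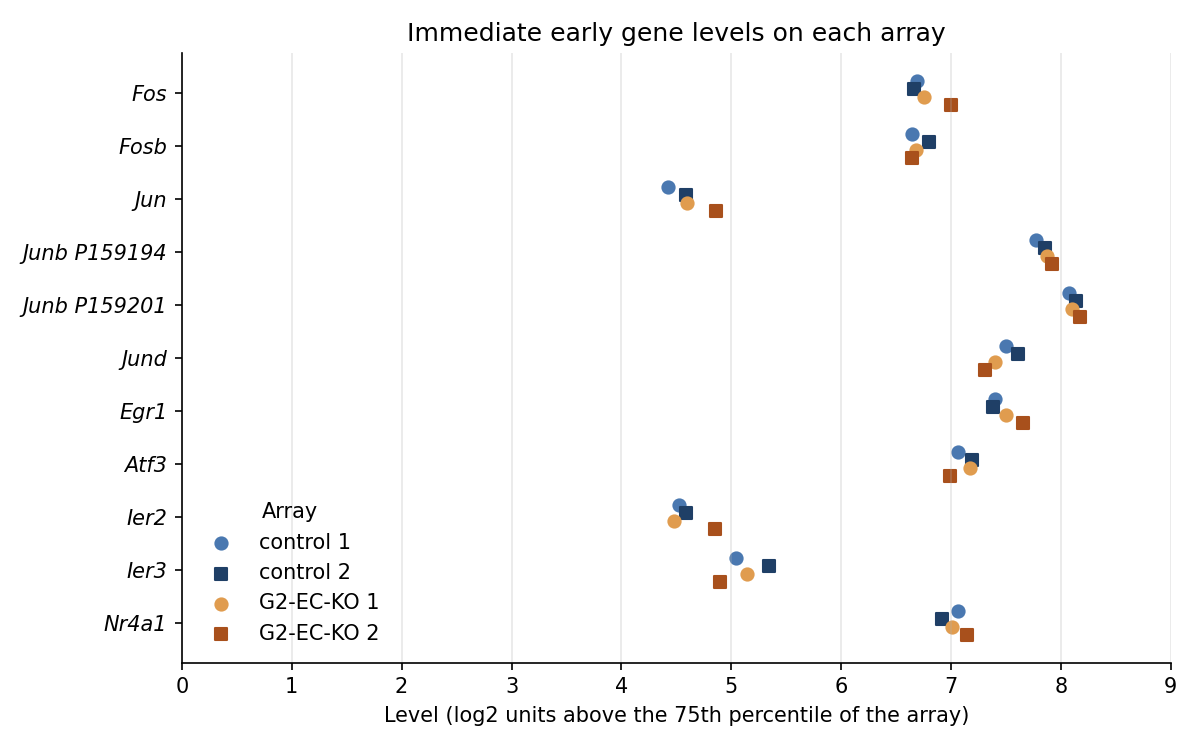
Level of each immediate early probe (rows) on each of the 4 arrays, as log2 above that array's 75th percentile; blue points are control and orange points G2-EC-KO arrays, circles replicate 1 and squares replicate 2. All levels lie between 4.42 and 8.18, and no gene spans more than 0.45 log2 units across the arrays.

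Fos, the inducible partner in AP-1, read 6.69 and 6.66 in control and 6.75 and 7.002 in G2-EC-KO. The groups did not overlap, and G2-EC-KO replicate 2 was the highest array. The log2 change was 0.20 (SE 0.13, 95% interval -0.15 to 0.55; limma, adjusted p = 0.610), which fell to -0.0070 without scaling between arrays. Its close relative Fosb, which also needs a Jun partner, read 6.64 and 6.80 in control and 6.68 and 6.64 in G2-EC-KO. Control replicate 2 was highest, the groups overlapped and the log2 change of Fosb was -0.056 (SE 0.12; limma, adjusted p = 0.862).

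Jun, the founding Jun subunit, read 4.42 and 4.59 in control and 4.60 and 4.86 in G2-EC-KO. Control replicate 1 was lowest and G2-EC-KO replicate 2 highest, and the groups were separated by 0.011 between their nearest arrays. The log2 change of Jun was 0.23 (SE 0.15, 95% interval -0.16 to 0.61; limma, adjusted p = 0.606). Junb, a Jun protein induced early along with Fos, was measured by a pair of probes. Probe A_51_P159194 read 7.77 and 7.85 in control and 7.87 and 7.91 in G2-EC-KO, and probe A_51_P159201 read 8.08 and 8.14 in control and 8.10 and 8.18 in G2-EC-KO. Both probes were lowest on control replicate 1 and highest on G2-EC-KO replicate 2, and only the first kept the groups apart. Their log2 changes were 0.080 (SE 0.11) and 0.032 (SE 0.11), and both turned negative with quantile normalization, at -0.019 and -0.094. Jund, the Jun protein most cells carry without stimulation, read 7.50 and 7.61 in control and 7.40 and 7.30 in G2-EC-KO. Jund was the one member with both G2-EC-KO arrays below both control arrays. Its log2 change was -0.20 (SE 0.11, 95% interval -0.51 to 0.10; limma, adjusted p = 0.576), the smallest adjusted p among the 11 probes.

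Among the factors outside AP-1, Egr1 read 7.40 and 7.38 in control and 7.50 and 7.65 in G2-EC-KO. The groups did not overlap, with a log2 change of 0.18 (SE 0.12, 95% interval -0.12 to 0.49; limma, adjusted p = 0.597). Before scaling its signals were 237948 and 239873 in control and 232782 and 237549 in G2-EC-KO. These differ by at most 1.03-fold, so that its change became -0.023 without scaling. Atf3, which can pair with Jun proteins, read 7.06 and 7.19 in control and 7.18 and 6.99 in G2-EC-KO, so that G2-EC-KO replicate 2 was the lowest array and replicate 1 lay inside the control range. Its log2 change was -0.046 (SE 0.13). Nr4a1, also known as Nur77, read 7.06 and 6.91 in control and 7.01 and 7.14 in G2-EC-KO. These groups overlapped too, with a log2 change of 0.088 (SE 0.12).

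The remaining members do not bind DNA as AP-1 or EGR factors. Ier2, a short nuclear protein, read 4.52 and 4.59 in control and 4.48 and 4.85 in G2-EC-KO. The G2-EC-KO arrays bracketed the control arrays, and the log2 change of 0.11 (SE 0.16) turned to -0.075 when G2-EC-KO replicate 2 was left out. Ier3, a regulator of cell survival, read 5.04 and 5.35 in control and 5.15 and 4.89 in G2-EC-KO. It had the widest range of the members, 0.45, with control replicate 2 highest and G2-EC-KO replicate 2 lowest. Its log2 change was -0.17 (SE 0.17, 95% interval -0.62 to 0.27; limma, adjusted p = 0.698).

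Counted together, 7 probes had a positive and 4 a negative log2 change, with a median of 0.080 beside -0.0020 over all probes tested. The median size of the change without its sign was 0.11 for the members and 0.15 for all probes. The groups did not overlap at 5 of the 11 probes, 4 of them higher and 1 lower in G2-EC-KO, which is 45.5% against 46.4% of all probes, of which 23.8% are higher and 22.6% lower. That share is near the background and is no result about these genes. The median range across the 4 arrays was 0.27 for the members and 0.35 for all probes. In 9 of 11 probes the difference between the replicates of at least 1 group exceeded the difference between the group means. A difference between arrays varies more than a difference between means, which favours a high count for any genes. The share over all probes was not computed, so this count is no result about the members. The directions depend on the scaling: 6 of the 11 turned sign without scaling between arrays, which moved the median of all probes to -0.21. Jun stayed positive, at 0.018 (SE 0.14), and Fosb, Jund, Atf3 and Ier3 stayed negative.

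**Figure D2:**
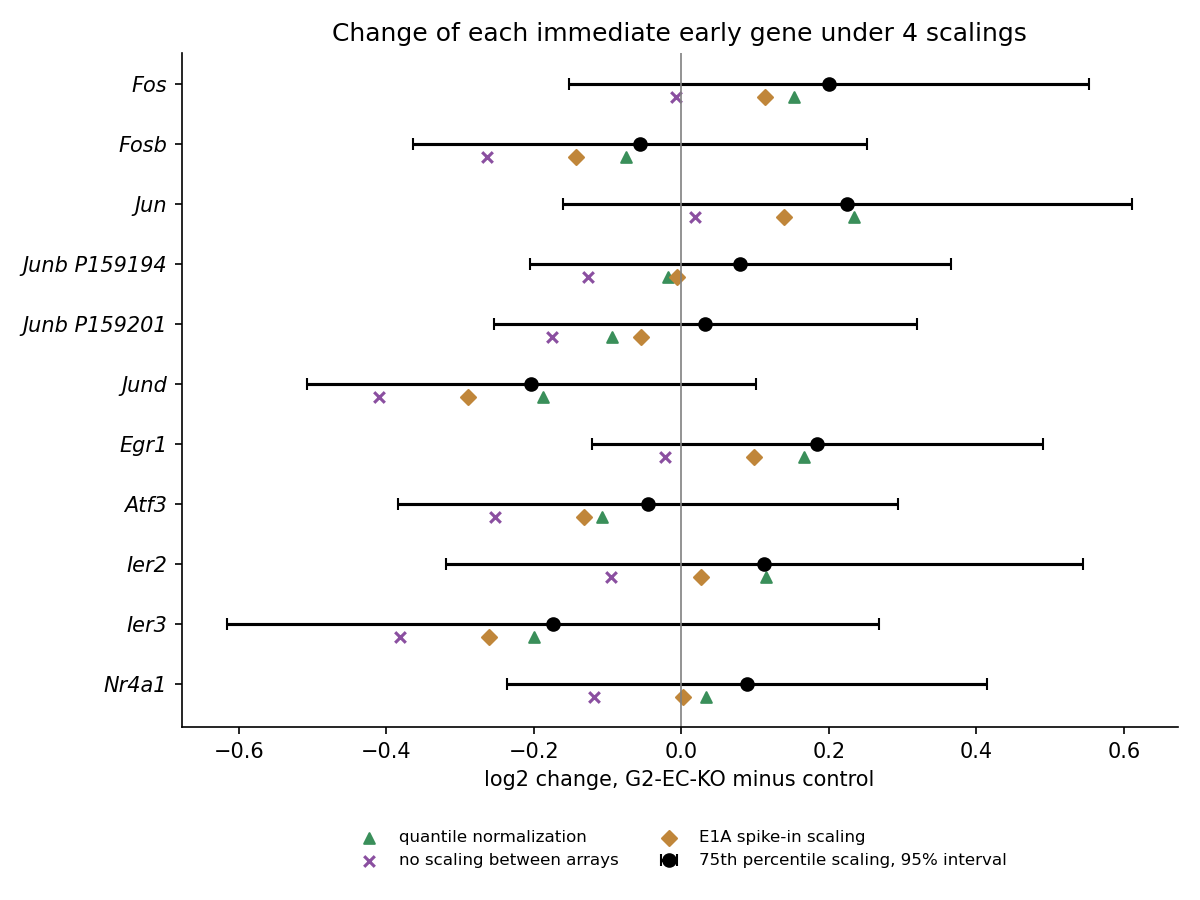
log2 change of each immediate early probe between G2-EC-KO and control (x axis): black points are values scaled to the 75th percentile with 95% intervals from limma, and coloured symbols are values under 3 other scalings. Every interval crosses 0. Fosb, Jund, Atf3 and Ier3 lie below 0 and Jun lies above 0 under all 4 scalings, while the Junb probes lie on both sides.

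As a reading of each array, the difference of each probe from its own mean over the 4 arrays was taken, and the median over the 11 probes was computed. This median was -0.065 on control replicate 1, 0.00040 on control replicate 2, -0.019 on G2-EC-KO replicate 1 and 0.060 on G2-EC-KO replicate 2. Over all probes tested the same medians lay between -0.00050 and 0.011. The arrays thus span 0.13 log2 units in the members' median, while the SD between replicate arrays of a group was 0.051. Control replicate 1 was above the own mean of 2 of 11 probes, and G2-EC-KO replicate 2 of 7. Without scaling the order changed, with 0.12 on control replicate 2 and -0.11 on G2-EC-KO replicate 2.

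**Figure D3:**
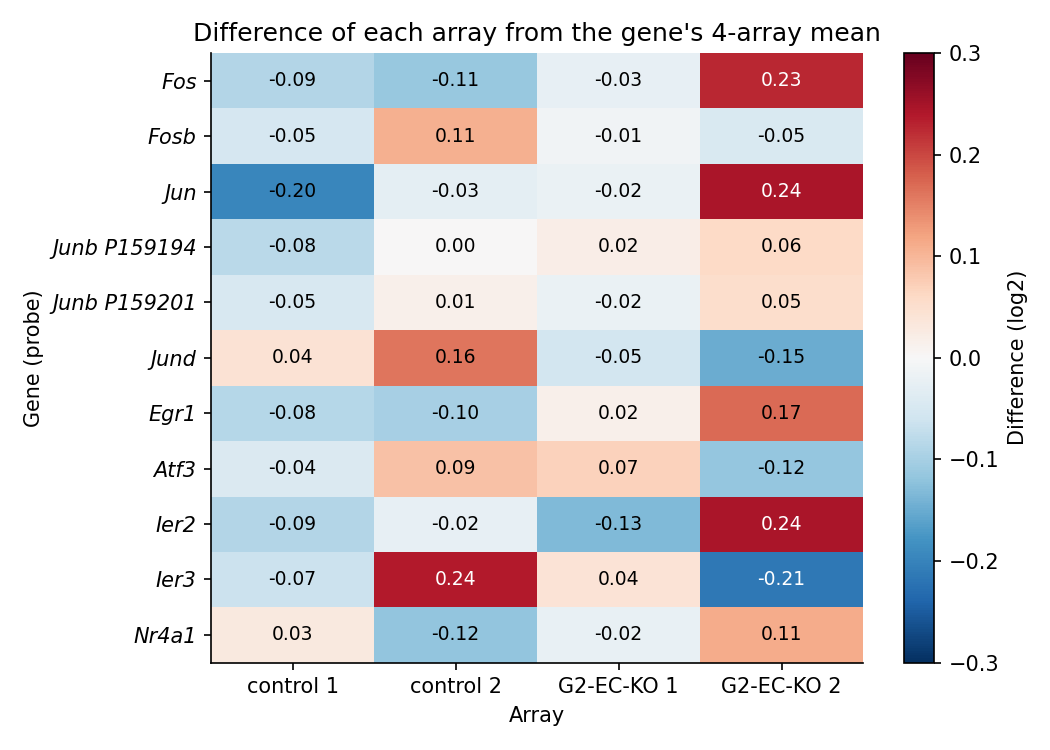
Difference of each array (columns) from the 4-array mean of each immediate early probe (rows), in log2 units; red is above and blue below that mean. On G2-EC-KO replicate 2, Fos, Jun, Egr1 and Ier2 lie 0.17 to 0.24 above their means, whereas Ier3 lies 0.21 and Jund 0.15 below.

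With scaling to the 75th percentile the members did not all rise and fall together from array to array. On G2-EC-KO replicate 2, 7 of the 11 probes had their highest level (Fos, Jun, both of Junb, Egr1, Ier2 and Nr4a1), and 3 had their lowest (Jund, Atf3 and Ier3). The 4 probes that were not highest there, the same 3 genes and Fosb, were all highest on control replicate 2. Over the 26883 tested probes with a value on every array, 35.8% were highest and 32.1% lowest on G2-EC-KO replicate 2. Without scaling between arrays 1 of the 11 probes, Fos, was highest on that array and 9 were highest on control replicate 2, and with spike-in scaling 0 were highest there. How far genes differ in their change between 2 arrays does not depend on a scaling factor, but the size and sign of each change do. With spike-in scaling all 11 probes fell from replicate 1 to replicate 2 of G2-EC-KO. With the 75th percentile, Ier2 moved by 0.38 between these arrays, Jun by 0.26 and Fos by 0.25, while Ier3 moved by -0.25 and Atf3 by -0.19. Between the control replicates Ier3 moved by 0.30 and Nr4a1 by -0.15. The median size of the difference between the G2-EC-KO replicates was 0.15 for the members and 0.18 for all probes. For the control replicates both medians were 0.12. Moves of this size are therefore not particular to the members.

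Fos and Jun were each printed as 10 spots on every array, which gives the error of the measurement within an array. The SD among the 10 Fos spots was between 0.045 and 0.066, and among the 10 Jun spots between 0.032 and 0.040. On G2-EC-KO replicate 2 the lowest Fos spot read 6.89, above the highest Fos spot of the other arrays, 6.83. The lowest Jun spot there read 4.81, above 4.66 elsewhere. For Jun this order depends on the scaling. Before scaling the Jun signal was 34604 on control replicate 2 and 34379 on G2-EC-KO replicate 2. The Fos signal was 145860 and 151624 on the same arrays. The spots of an array share 1 RNA sample and 1 scale, so they bound the spotting error and say nothing about the spread between mice.

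**Figure D4:**
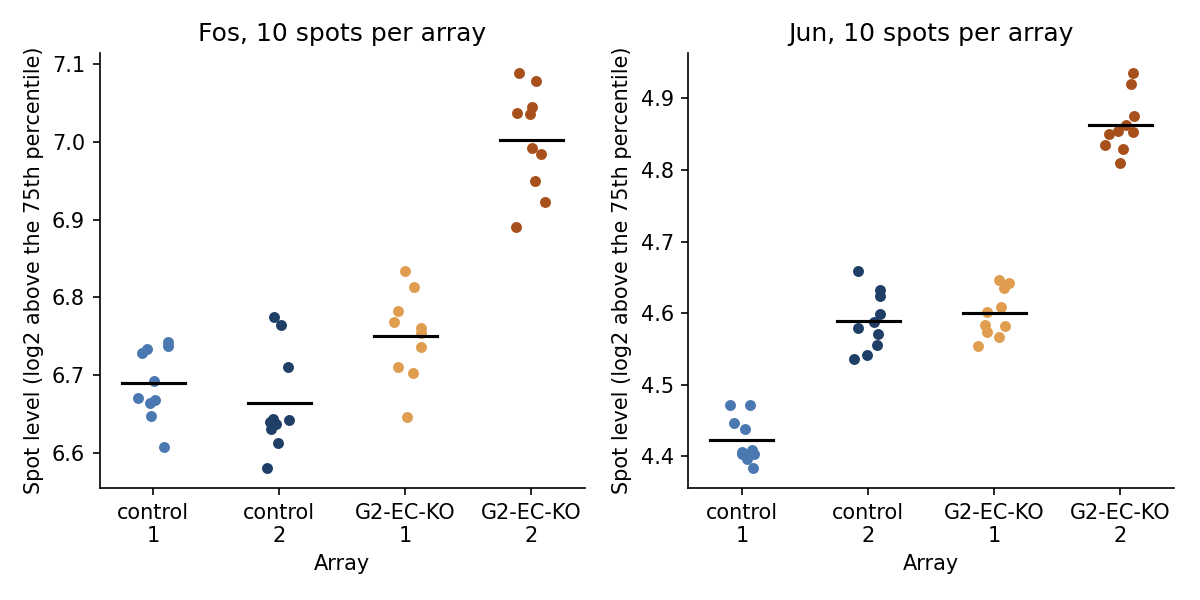
Level of each of the 10 spots of Fos (left) and Jun (right) on each array, as log2 above the array's 75th percentile, with a line at the mean of the spots. After this scaling the spots of G2-EC-KO replicate 2 lie above all others, with means of 7.002 for Fos and 4.86 for Jun.

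Other genes of the same response were taken from lists. Of 40 further immediate early genes, all 40 were well above background on 4 arrays and 0 passed the test (limma), with 19 positive and 21 negative changes and a median of -0.0025; 1 had an unadjusted p under 0.05. That gene was Klf6, a zinc finger factor induced by injury, which read 6.004 and 5.63 in control and 6.25 and 6.50 in G2-EC-KO (log2 change 0.56, SE 0.18; limma, adjusted p = 0.491). The next smallest p belonged to Ccn1, a matrix protein induced by YAP and SRF signalling, with a log2 change of 0.51 (SE 0.20), and to the nuclear receptors Nr4a3 and Nr4a2, relatives of Nr4a1, with -0.38 (SE 0.15) and -0.68 (SE 0.28). Nr4a2 read 5.27 and 5.07 in control and 4.87 and 4.12 in G2-EC-KO, so that G2-EC-KO replicate 2 was lowest for Nr4a2 and highest for Nr4a1. On that array 18 of 40 genes (45%) were highest and 16 of 40 (40%) lowest, beside the 35.8% and 32.1% of all probes given above.

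Genes that shut the response off were measured at 19 of 20 listed members. These include the MAP kinase phosphatases, Zfp36 and the NAB corepressors of Egr1. None passed (limma, 0 of 19, also 0 at an unadjusted p under 0.05), with 11 positive and 8 negative changes and a median of 0.068. The values with the smallest p were 0.35 (SE 0.18) for Nab2, 0.38 (SE 0.23) for the ERK phosphatase gene Dusp6, -0.18 (SE 0.11) for Dusp8 and -0.39 (SE 0.26) for Tnfaip3, an inhibitor of NF-kappaB.

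The kinases and factors upstream gave 12 positive and 17 negative changes in 29 genes, with a median of -0.030 and 0 past the test (limma, 1 at an unadjusted p under 0.05). That 1 was Elk4, an SRF partner, whose log2 change was -0.31 (SE 0.11; limma, adjusted p = 0.512). Map2k3, a kinase that activates p38, had -0.53 (SE 0.23), Braf -0.25 (SE 0.12) and Mef2a -0.21 (SE 0.11). Among 12 other dimer partners of AP-1 and ATF proteins 0 passed and 0 had an unadjusted p under 0.05 (limma), with a median of -0.11 and 8 lowest on G2-EC-KO replicate 2. The small Maf genes Mafg and Mafk gave -0.38 (SE 0.17) and -0.31 (SE 0.17), Atf2 gave -0.25 (SE 0.14) and Atf5 gave 0.24 (SE 0.16).

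Most of the cytokine and adhesion genes that follow the early response were low on G2-EC-KO replicate 2, the array on which Fos and Jun read highest after scaling. In 16 of 17 measured genes this array read below G2-EC-KO replicate 1, with a median difference of -0.66, and 11 of 17 had their lowest level on it. The other 6 were lowest on control replicate 1, and 5 of 17 lay above their own mean on G2-EC-KO replicate 2. Over all probes tested 47.2% read below, with a median difference of 0.019. With the scalings tried the median difference of the 17 genes ran from -1.04 to -0.51, and that of the 11 immediate early probes from -0.31 to 0.13. Both lowest values came with spike-in scaling, under which all 11 probes read below replicate 1. The cytokine Il6 read 5.39 and 5.44 in control and 5.41 and 4.68 in G2-EC-KO. Icam1, a leukocyte adhesion receptor, read 4.49 on both control arrays, and 4.42 and 3.65 in G2-EC-KO, and the endothelial selectin gene Sele read 1.42 and 1.30 in control and 1.43 and 0.32 in G2-EC-KO. In each of these the control arrays and G2-EC-KO replicate 1 lay closer to each other than to G2-EC-KO replicate 2. Cxcl10, which like these 3 genes was picked after its values were seen, read differently, with 7.67 and 7.13 in control and 7.73 and 7.07 in G2-EC-KO, so that both replicates numbered 2 were lower. Between the groups 0 of the 17 passed (limma, also 0 at an unadjusted p under 0.05), with a median of -0.036. The values with the smallest p were 0.35 (SE 0.14) for Ptgs2, the inducible cyclooxygenase, 0.27 (SE 0.13) for Il1b, -0.49 (SE 0.26) for the urokinase receptor gene Plaur and 0.48 (SE 0.28) for Ccl3. Ptgs2 read -0.0043 and 0.22 in control and 0.55 and 0.36 in G2-EC-KO. Il1b read 0.21 and 0.25 in control and 0.62 and 0.37 in G2-EC-KO. Markers of other cells also differed between the 2 G2-EC-KO arrays. From G2-EC-KO replicate 1 to replicate 2 the median difference was -0.49 for mural markers (10 of 10 lower), -0.68 for red cell and platelet markers (5 of 6 lower), -0.59 for granulocyte markers (5 of 6 lower), -0.21 for macrophage markers (10 of 13 lower) and -0.17 for lymphocyte markers (6 of 8 lower). It was 0.61 for cardiomyocyte markers (1 of 15 lower) and 0.062 for fibroblast markers (4 of 11 lower). Their part in the cytokine values was not tested.

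Heat shock genes are chaperones that respond to heat and protein damage. Of 13 genes 11 had positive and 2 negative changes, with a median of 0.11, and 0 passed or had an unadjusted p under 0.05 (limma). Picked by smallest p, Hspe1, a mitochondrial cochaperone, gave 0.32 (SE 0.13), Hsp90ab1 0.18 (SE 0.11), Hspa8 0.17 (SE 0.12) and Hspd1 0.13 (SE 0.10). Hspa1a and Hspa1b, not picked in this way, gave 0.064 (SE 0.16) and -0.069 (SE 0.17). Control replicate 2 was the lowest array for 10 of the 13 genes, and their median became -0.092 without scaling.

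**Figure D5:**
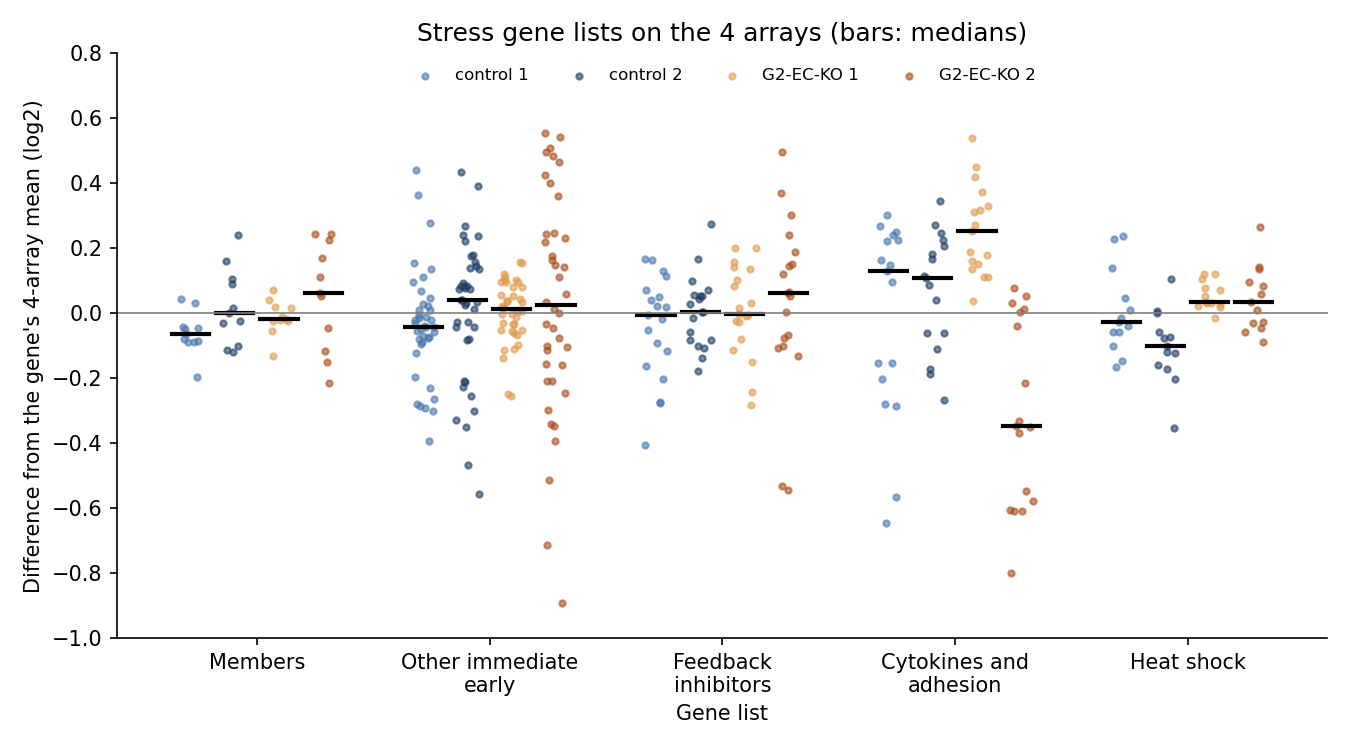
Difference of each gene from its own 4-array mean (y axis, log2) for the 11 immediate early probes and 4 further lists, by array; points are genes and bars medians. The cytokine and adhesion genes have medians of 0.13 and 0.11 on the control arrays, 0.25 on G2-EC-KO replicate 1 and -0.35 on G2-EC-KO replicate 2, while the members' medians lie between -0.065 and 0.060.

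Genes with an array pattern most like the members were sought among 13122 other named genes well above background on all arrays. Likeness was the root mean square distance, over the 4 arrays, to the members' median differences. The nearest were Rap2b, a small GTPase, at 0.0042, Zdhhc3, a palmitoyl transferase, at 0.0055, Nelfb, a subunit of the elongation factor that pauses RNA polymerase, at 0.0056, Tmem131 at 0.0059 and Tm6sf2 at 0.0061. The members themselves lay between 0.018, for a Junb probe, and 0.19, for Ier3, from their own median. The named genes were picked as the nearest of 13122, so their smaller distances follow from the choice. With 4 arrays and a pattern this flat, the match describes these arrays only.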

How the data were processed

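RNA of 4 samples was measured with Cy3 on arrays of Agilent design 014868, annotated on mm9 per the file headers. The authors deposited spot intensity values quantified with Feature Extraction 10.7.3.1 per the file headers, while the submitters' processing notes name 10.5. The processed intensity is background-subtracted and detrended within the array, per the file headers. The deposited value table holds, for each row, the median signal plus 16 less the median local background, so it is linear and not centred, with no direction to settle.

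Control spots and flagged outlier spots (87 to 101 per array) were left out, and the log2 signal was centred on each array's 75th percentile and averaged over a probe's spots. Probes well above background on at least 2 of 4 arrays were tested, 26894 in all, with limma 3.58.1 in R 4.3.3 on group alone, two-sided, with Benjamini-Hochberg adjustment over all of them. An exact permutation test of 2 against 2 cannot go below 0.333. The number of arrays limits the precision. Symbols came by accession from RefSeq (GRCm38.p6), for 26933 of 41174 probes. The test was checked on simulated data with 2 arrays per group. At the threshold it recovered 5.14% of 2-fold, 75.6% of 4-fold and 96.2% of 16-fold changes. Changes of 2-fold or less would thus mostly be missed.

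The members and lists were chosen with earlier results of these data known. Members are named in full, and from each other list, none of which had a gene past the threshold, the 4 genes lowest in p are given. For the lists and for likeness, a gene is its probe with the highest mean. Alternatives covered background correction, scaling, the filter, the value table, the variance model, a replicate block and leaving out arrays. Scaling by spike-in probes and no scaling were added after seeing the data. The mean spot signal was not used here, so normexp used the median signal, with an offset of 50.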

Additional observations from a re-analysis of the deposited data

How the results depend on the processing

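No immediate early probe passed the threshold under any of 14 alternatives (lowest adjusted p 0.248, limma), nor did a gene of the 6 related lists. Of 154 recomputed member values 139 kept their direction and 15 turned. The 139 include all values from the changed filters, the intensity trend and the replicate block. In this design those settings cannot alter a member's difference of group means, so they are no check of direction. With quantile normalization the Junb probes gave -0.019 and -0.094, and with spike-in scaling -0.0065 and -0.054. Under spike-in scaling the SE was 0.34 for every member, larger than each of their changes. That setting could therefore not call changes of this size. Without scaling between arrays Fos gave -0.0070, the Junb probes -0.13 and -0.17, Egr1 -0.023, Ier2 -0.095 and Nr4a1 -0.12. When arrays were left out in turn, Fosb ranged from -0.13 to 0.022, Atf3 from -0.14 to 0.047, Junb probe A_51_P159201 from -0.0043 to 0.069 and Ier2 from -0.075 to 0.30. Fosb and Atf3 turned positive without control replicate 2, and Atf3 also without G2-EC-KO replicate 2, the array without which Ier2 and that Junb probe turned negative.

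The median change of the members, 0.080, became -0.019 with quantile normalization, -0.13 without scaling and -0.0065 with spike-in scaling. It ranged from 0.021 to 0.10 with arrays left out, lowest without G2-EC-KO replicate 2, and was 0.063 without control replicate 2. The members' median on the arrays moved without scaling to 0.025 and 0.12 on the control arrays and -0.11 on G2-EC-KO replicate 2, and with spike-in scaling to 0.054 on control replicate 1, 0.13 on G2-EC-KO replicate 1 and -0.17 on replicate 2. The 8 spike-in probes are those of the array design, and the labels do not mention them.

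Over all probes the count past the threshold, 1, became 2 with normexp, quantile normalization or median centring, 283 with spike-in scaling, and 0 without a filter, with a filter on all 4 arrays, with an intensity trend or with the replicate block. It ranged from 0 to 8 with arrays left out, 8 without control replicate 1. The cause was not tested. Between samples of the same replicate number the deviations had a correlation of 0.044 over probes. That value rests on 1 difference per group, and the control difference also holds the sex-linked RNA. It therefore cannot show whether samples of the same number were prepared together. The replicate block left 0 members past the threshold. With 1 array of each group per replicate number, the block cannot change a member's log2 change, so no direction could turn.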
